A study of Mus musculus with 18 samples.

Results

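Genes that make, package, clear and sense the inhibitory transmitter GABA were followed in whole brain RNA from C57BL/6 mice aged 8 weeks. The 7 genes, chosen by symbol, were Gad1 and Gad2 (synthesis), Slc32a1 (vesicle loading), Slc6a11 (uptake), Abat (breakdown), and Gabbr1 and Gabbr2 (the metabotropic GABA-B receptor). The platform annotation assigned 16 of the 45101 probe sets of the array to 6 of them, and Gabbr2, to which no probe set was matched, was not analysed here. For each gene the probe set with the highest mean signal over all arrays led, and all 6 leading probe sets were among the 13072 genes that remained after a filter on dim signals. The 18 Affymetrix Mouse 430 arrays came from 3 genotypes, ERalphaKO (estrogen receptor alpha knockout), ERbetaKO (estrogen receptor beta knockout) and wild type, all on the C57BL/6 background, with 3 female and 3 male samples each and no treatment named. Samples carry a number within their group, and nothing in the labels says that they were separate animals. The p-values therefore cover the spread among arrays, which may be technical. The alleles of the knockouts are not given in the labels.

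GABA is made from glutamate by the glutamate decarboxylases encoded by Gad1 and Gad2, and is loaded into synaptic vesicles by the transporter encoded by Slc32a1. After release it is taken up by plasma membrane transporters, among them the astrocytic Slc6a11, and broken down by the mitochondrial transaminase encoded by Abat. GABA-B receptors are G protein coupled and work as a pair of Gabbr1, which binds GABA, with Gabbr2, which couples to the G protein. They lower transmitter release before the synapse and open potassium channels after it. Gad1, Gad2 and Slc32a1 are classic markers of inhibitory neurons.

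The arrays set limits on every comparison. Esr2, the gene targeted in ERbetaKO, ran against its label, at 271 ± 98.0 in ERbetaKO-labelled and 28.7 ± 11.4 in wild type arrays (SD, n = 6 each). Esr1, targeted in ERalphaKO, had at its leading probe set a signal of 129.2 ± 21.6 (ERalphaKO-labelled) and 142.6 ± 35.9 (wild type). Where these probe sets lie against the disrupted parts is not known here. For this reason the knockout groups carry the word labelled in their names, and all directions depend on the labels being right. Array signals correlated at 0.956 to 0.985 within groups and at 0.953 to 0.982 between them. The Purkinje cell gene Pcp2 ranged over 208.6 to 7263 in ERalphaKO-labelled, 225.2 to 9849 in ERbetaKO-labelled and 116.6 to 10790 in wild type arrays, and passed a signal of 500 on 4, 3 and 4 arrays in that order. The Actb 3' over 5' control ratio, a measure of RNA integrity and copying, was 1.278 ± 0.079 in ERalphaKO-labelled, 1.484 ± 0.182 in ERbetaKO-labelled and 1.197 ± 0.021 in wild type arrays (SD, n = 6 each). Outside the gene lists used here, Nnt read 726 to 901.3 in ERalphaKO-labelled, 1115 to 1439 in ERbetaKO-labelled and 1262 to 1500 in wild type arrays. Fos read 1797 to 3216, 2081 to 3226 and 466 to 887.6 in that order. The source of these differences was not tested. In whole tissue, fewer cells of a type and less RNA per cell cannot be told apart.

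Promoter sequence is shown for 3 of the 4 genes that pass a genotype test in what follows, so that the letters around their starts can be read beside the values. The sequences are the RefSeq 300-base windows around the gene start on GRCm38.p6, 5′ to 3′, and 6 of the 7 genes, all but Abat, matched an entry. Capitals mark AGGTCA, the half-site of the estrogen response element, searched on both strands.
Slc6a11, chr6:114130991-114131290, plus strand: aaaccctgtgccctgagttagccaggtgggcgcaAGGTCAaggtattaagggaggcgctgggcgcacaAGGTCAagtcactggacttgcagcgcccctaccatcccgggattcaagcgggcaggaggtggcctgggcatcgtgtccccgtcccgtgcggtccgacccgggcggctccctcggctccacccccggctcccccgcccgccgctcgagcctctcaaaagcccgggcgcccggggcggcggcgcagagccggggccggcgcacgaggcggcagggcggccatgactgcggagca
Slc32a1, chr2:158610508-158610807, plus strand: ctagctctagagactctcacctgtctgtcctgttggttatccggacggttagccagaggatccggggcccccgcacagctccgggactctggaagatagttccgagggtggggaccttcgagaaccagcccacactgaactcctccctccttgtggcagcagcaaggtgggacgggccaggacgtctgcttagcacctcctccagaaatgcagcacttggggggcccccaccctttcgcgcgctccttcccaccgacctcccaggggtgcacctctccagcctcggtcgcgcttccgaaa
Gabbr1, chr17:37045716-37046015, plus strand: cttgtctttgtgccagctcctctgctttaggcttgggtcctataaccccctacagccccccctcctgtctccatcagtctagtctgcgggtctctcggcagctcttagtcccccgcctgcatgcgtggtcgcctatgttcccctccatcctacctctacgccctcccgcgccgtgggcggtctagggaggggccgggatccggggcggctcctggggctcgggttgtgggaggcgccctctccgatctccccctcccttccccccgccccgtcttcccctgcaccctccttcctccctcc
The Slc6a11 window held 2 half-sites, whose first letters lie at -216 and -182 from the start. The windows of Gad1, Gad2, Slc32a1, Gabbr1 and Gabbr2 held 0. Of 32851 promoter windows of the same length, 16.3% held at least 1 half-site and 1.81% held 2 or more. The full estrogen response element, GGTCA facing its own reverse complement across 3 bases, which shares letters with the half-site, was in 0.07% of windows, the AP-1 motif TGANTCA in 7.81% and the cyclic AMP response element TGACGTCA in 1.79%, and each had 0 matches in the 6 member windows. These matches describe letters and say nothing of binding.

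Differences past the threshold lay in GABA uptake, breakdown and reception against wild type, and in vesicle loading and uptake between the knockout-labelled groups. Slc6a11 and Abat fell in ERbetaKO-labelled brains, though the Abat probe sets disagreed in sign, and Gabbr1 fell in ERalphaKO-labelled brains. Slc32a1 and Slc6a11 were higher in ERalphaKO-labelled than in ERbetaKO-labelled brains, and neither synthesis gene passed the test in any of these comparisons. The unadjusted p was under 0.05 for 2 and 4 of the 6 genes in the ERalphaKO-labelled and ERbetaKO-labelled comparisons with wild type, beside 23.3% and 25.4% of all tested genes. Against wild type, 1 of the 6 measured genes fell and 0 rose in ERalphaKO-labelled brains, where 3.63% of all tested genes were lower and 3.07% higher. In ERbetaKO-labelled brains 2 fell and 0 rose, where 4.58% of all tested genes were lower and 2.91% higher. The calls are limma adjusted p-values under 0.05 over all 13072 genes, on log2(signal + 63.63). The median log2 difference of the 6 genes was -0.08 in ERalphaKO-labelled brains, against -0.03 over all tested genes, and -0.33 in ERbetaKO-labelled brains, against 0.01 over all tested genes. The 2 comparisons share the wild type arrays. With arrays scaled to a common median, the share of higher calls over all genes in ERalphaKO-labelled brains was 46.2% against 45.8%. The number of calls there fell to 461 from 876. In ERbetaKO-labelled brains the share moved to 7.15% against 38.9% and the number of calls rose to 1873 from 980. The median of all genes there shifted to -0.12.

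**Figure D1:**
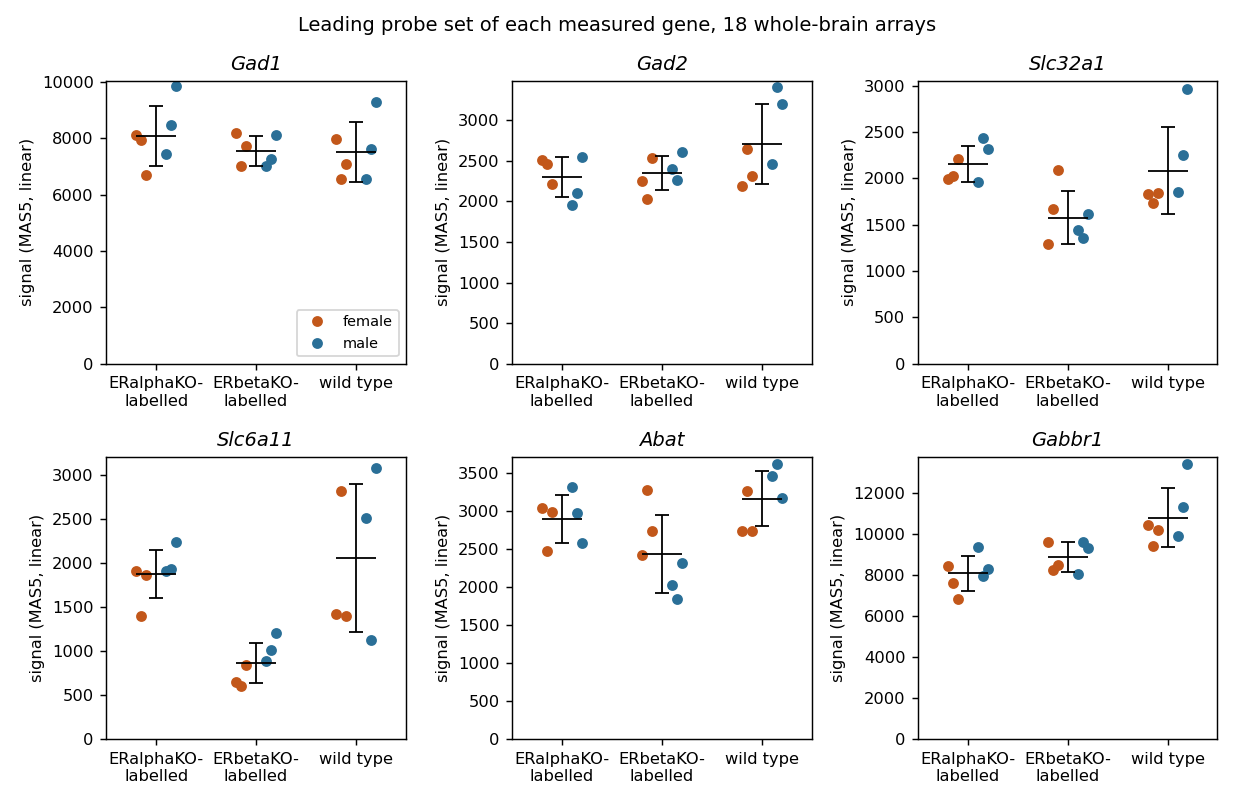
Signal of the leading probe set of each measured gene on a linear scale from 0, with females in orange and males in blue and the mean ± SD of 6 arrays in black. The 6 ERbetaKO-labelled Slc6a11 values, 603.2 to 1206, lie below all 6 ERalphaKO-labelled values, and all 6 ERalphaKO-labelled Gabbr1 values lie below the 6 wild type values.

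Among the synthesis genes, Gad1, which encodes the larger glutamate decarboxylase, did not pass the test in any of the 3 genotype comparisons. Its signal spanned 6706 to 9865 with a median of 8038 in ERalphaKO-labelled arrays and 7013 to 8195 with a median of 7502 in ERbetaKO-labelled arrays, against 6541 to 9308 with a median of 7354 in wild type arrays. The 3 ranges overlapped. The log2 difference from wild type was 0.11 ± 0.10 (SE, limma adjusted p = 0.532) in ERalphaKO-labelled and 0.02 ± 0.10 (adjusted p = 0.932) in ERbetaKO-labelled brains. The ERalphaKO-labelled value depended on the scaling, and under quantile normalization it was 0.29 with an adjusted p of 0.0124, and the difference between ERalphaKO-labelled and ERbetaKO-labelled brains was 0.19 with an adjusted p of 0.0478. The other Gad1 probe set, at 3787 ± 951 in ERalphaKO-labelled, 3594 ± 549 in ERbetaKO-labelled and 3413 ± 734 in wild type arrays (SD, n = 6 each), did not pass the test either.

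Gad2, which encodes the smaller decarboxylase tied to vesicles, had a lower mean than wild type in both knockout-labelled groups, and neither difference passed the test. The values were 2510, 2465 and 2213 in female and 1958, 2100 and 2546 in male ERalphaKO-labelled arrays, 2255, 2031 and 2539 in female and 2399, 2259 and 2602 in male ERbetaKO-labelled arrays, and 2190, 2643 and 2311 in female and 2459, 3409 and 3198 in male wild type arrays. The 2 highest wild type males stood above every other array. The log2 difference was -0.22 ± 0.09 (SE, limma adjusted p = 0.160) in ERalphaKO-labelled and -0.18 ± 0.09 (adjusted p = 0.216) in ERbetaKO-labelled brains. The dimmer probe set of Gad2 ran the other way, at 775.8 ± 143 in ERalphaKO-labelled, 741.8 ± 104 in ERbetaKO-labelled and 655.2 ± 149 in wild type arrays, and it too did not pass.

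Slc32a1, the vesicular GABA transporter, differed on average between the knockout-labelled groups, whose values overlapped. Its signal was 1989, 2025 and 2211 in female and 1955, 2433 and 2321 in male ERalphaKO-labelled arrays, and 1291, 1665 and 2084 in female and 1442, 1361 and 1613 in male ERbetaKO-labelled arrays. Wild type arrays read 1834, 1730 and 1842 in females and 1857, 2247 and 2965 in males. In ERbetaKO-labelled arrays 5 of 6 values lay below every wild type value, and the female at 2084 was the exception. The log2 difference from wild type was -0.38 ± 0.11 (SE, limma adjusted p = 0.0512) in ERbetaKO-labelled brains, just short of the threshold, and 0.07 ± 0.11 (adjusted p = 0.752) in ERalphaKO-labelled brains. Between ERalphaKO-labelled and ERbetaKO-labelled brains it was 0.45 ± 0.11 (adjusted p = 0.0169), a fold of 1.37. With the Actb ratio in the fit it was larger and less precise, 0.55 ± 0.16, and its adjusted p of 0.0511 missed the threshold. The ERbetaKO-labelled difference passed under 6 of 32 other settings, among them the fit without that female, where it was -0.46 with an adjusted p of 0.0235, and the fit without wild type male 1, where it was -0.46 with an adjusted p of 0.0277. The further 3 probe sets of Slc32a1 lay at 3.5 to 96.7, near background.

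Slc6a11, the GABA transporter of astrocytes, showed the largest difference of the 6 measured genes. It read 655.2, 603.2 and 846 in female and 894.4, 1021 and 1206 in male ERbetaKO-labelled arrays, against 1420, 2822 and 1404 in female and 2520, 1130 and 3087 in male wild type arrays. Of the ERbetaKO-labelled values 5 of 6 lay below every wild type value. The wild type values themselves split into 3 arrays at 1130 to 1420 and 3 at 2520 to 3087, and each cluster held arrays of both sexes. ERalphaKO-labelled arrays read 1916, 1405 and 1868 in females and 1912, 1935 and 2245 in males. Of these 6 values 5 lay between the wild type clusters, and the female at 1405 lay within the lower one.

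The log2 difference of Slc6a11 was -1.12 ± 0.21 (SE, limma adjusted p = 0.00574) in ERbetaKO-labelled brains, a fold of 0.459 on this scale, and it was -1.28 in females and -0.96 in males. In ERalphaKO-labelled brains it was -0.04 ± 0.21 (adjusted p = 0.932). Against ERbetaKO-labelled brains, ERalphaKO-labelled brains were 2.11-fold higher, with a log2 difference of 1.08 ± 0.21 (adjusted p = 0.00519) and all 6 values above all 6. The call against wild type held without each array in turn (-1.33 to -0.96). It was lost with the Actb ratio as a covariate, where the difference was -1.03 ± 0.37 (SE, limma adjusted p = 0.207). It was also lost on the arrays with Pcp2 over 500 (-1.05, adjusted p = 0.0752) and with the mean of both Slc6a11 probe sets (-0.43, adjusted p = 0.0550). With the Actb ratio the difference between the knockout-labelled groups was 1.01 (adjusted p = 0.0576). Over the 18 arrays Slc6a11 correlated with the Actb ratio at -0.69, and at -0.09 after group means were removed. The ratio was 1.342 to 1.84 in ERbetaKO-labelled and 1.174 to 1.228 in wild type arrays, without overlap. RNA integrity and the genotype label can therefore not be told apart in that comparison. The second probe set of Slc6a11 lay at 6.6 to 59.4, below the pseudocount on all 18 arrays.

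Astrocyte markers were read beside Slc6a11. Of 10 markers 2 fell in ERbetaKO-labelled brains and 0 rose, the 2 being Gfap (log2 difference -1.23 ± 0.14, limma adjusted p = 0.000184) and the amino acid transporter Slc7a10 (-0.47 ± 0.10, adjusted p = 0.0129). Of all tested genes 4.58% were lower and 2.91% higher in that comparison. The unadjusted p was under 0.05 for 8 of the 10 markers, beside 25.4% of all tested genes. Their summed signal was 40470 to 50577 in ERalphaKO-labelled, 38681 to 55973 in ERbetaKO-labelled and 50258 to 57698 in wild type arrays. Gfap, the intermediate filament of astrocytes, read 1193 ± 237 in ERbetaKO-labelled and 2869 ± 354 in wild type arrays (SD, n = 6 each) and so was measured in both. Over the 18 arrays Slc6a11 correlated with the list at 0.54, and at 0.00 after group means were removed. With the oligodendrocyte list it correlated at 0.60, and at 0.31 after group means were removed. Of 7 thalamic and 8 cerebellar granule cell markers 0 passed by limma in ERbetaKO-labelled brains, with median log2 differences of -0.18 and -1.03. With the thalamic list Slc6a11 correlated at 0.42, and at 0.21 after group means were removed. With the cerebellar granule cell list the values were 0.13 and -0.21. The part of astrocyte, oligodendrocyte or regional content in the Slc6a11 difference was not tested.

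Abat, the transaminase that degrades GABA, read 2415, 3269 and 2729 in female and 2025, 1837 and 2317 in male ERbetaKO-labelled arrays, against 2732, 3264 and 2729 in female and 3450, 3620 and 3171 in male wild type arrays. In males the 3 ERbetaKO-labelled values lay below the 3 wild type values, and in females the groups overlapped. ERalphaKO-labelled arrays read 3038, 2476 and 2986 in females and 3309, 2969 and 2575 in males. The log2 difference in ERbetaKO-labelled brains was -0.39 ± 0.09 (SE, limma adjusted p = 0.0189), a fold of 0.765, and in ERalphaKO-labelled brains it was -0.12 ± 0.09 (adjusted p = 0.437). The ERbetaKO-labelled difference was -0.06 in females and -0.72 in males, and the female minus male difference, 0.66 ± 0.18, did not pass (adjusted p = 0.9999). The call was lost without ERbetaKO-labelled male 2 (-0.35, adjusted p = 0.0508). It was also lost once the Actb ratio, which did not overlap between these groups, entered as a covariate (-0.62 ± 0.14, adjusted p = 0.0549). Of 6 oligodendrocyte markers 1, Myrf, fell in ERbetaKO-labelled brains (-0.75 ± 0.22, adjusted p = 0.0456) and 0 rose. Of all tested genes 4.58% were lower and 2.91% higher there. The summed signal of that list was 27793 to 46084 in ERbetaKO-labelled and 33335 to 47466 in wild type arrays, and Abat correlated with it at 0.65 over the 18 arrays and at 0.68 after group means were removed. With the astrocyte list the values were 0.66 and 0.33. They were 0.59 and 0.47 with the thalamic list, and 0.37 and 0.28 with the cerebellar granule cell list. The part of either cell type or of regional content in the Abat difference was not tested.

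The Abat probe sets disagreed. The dim second probe set read 196.3 ± 41.9 (ERbetaKO-labelled) and 112 ± 22.5 (wild type; SD, n = 6 each), and all 6 ERbetaKO-labelled values lay above all 6 wild type values. Of all tested genes, each read by its leading probe set, 4.06% did not overlap in this comparison. The share over all probe sets was not computed. The log2 difference was 0.56 ± 0.16 (SE, limma adjusted p = 0.0595), opposite in sign to the leading probe set. In ERalphaKO-labelled arrays it read 76.47 ± 27.6, and against ERbetaKO-labelled arrays the difference was -0.91 ± 0.16 (adjusted p = 0.00457). That fit covered all 45037 non-control probe sets without a filter, of which 4.72% passed in ERalphaKO-labelled against wild type, 3.59% in ERbetaKO-labelled against wild type and 9.43% in ERalphaKO-labelled against ERbetaKO-labelled brains. Averaging both probe sets turned the ERbetaKO-labelled difference to 0.09 (adjusted p = 0.542).

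**Figure D2:**
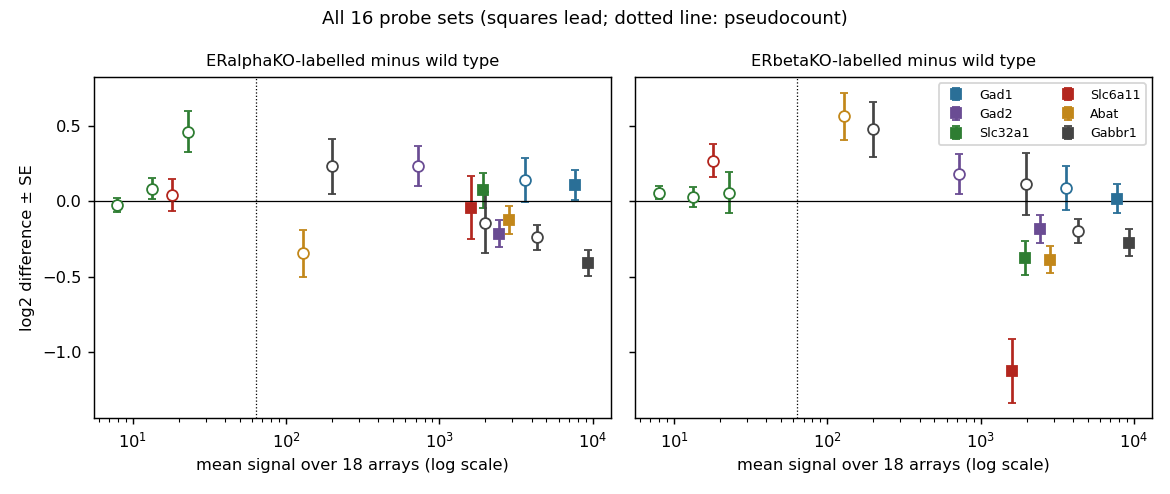
Log2 difference ± SE of all 16 probe sets against their mean signal over 18 arrays on a log scale, with squares for the leading probe sets and open circles for the others, and a dotted line at the pseudocount of 63.63. Leading and further probe sets of Abat differ in sign in ERbetaKO-labelled brains, at -0.39 and 0.56.

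Gabbr1, the subunit of the GABA-B receptor that binds the transmitter, was lower in ERalphaKO-labelled brains. Its signal was 8476, 7607 and 6850 in female and 9390, 7990 and 8325 in male ERalphaKO-labelled arrays, against 10471, 9428 and 10216 in female and 9943, 11342 and 13454 in male wild type arrays. All 6 ERalphaKO-labelled values lay below all 6 wild type values, and 4.65% of all tested genes did not overlap in this comparison. The log2 difference was -0.41 ± 0.08 (SE, limma adjusted p = 0.0111), a fold of 0.753, and it was -0.39 in females and -0.42 in males. ERbetaKO-labelled arrays read 9621, 8264 and 8484 in females and 8043, 9623 and 9319 in males, with a difference of -0.27 ± 0.08 (adjusted p = 0.0576) that did not pass. The further Gabbr1 probe sets differed there by -0.20, 0.11 and 0.48, none past the threshold. With the mean of all probe sets the ERbetaKO-labelled difference was 0.03. Between ERalphaKO-labelled and ERbetaKO-labelled brains the difference was -0.14 ± 0.08 (adjusted p = 0.281).

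Gabbr1 was read beside other bright genes and beside neuron markers. Its probe set stood at the 99.1 percentile of tested genes by signal, and among the 131 genes of the top percentile the log2 difference had a median of -0.29 in the same comparison, with 97.7% of them below 0. Under quantile normalization the Gabbr1 difference was -0.19 (adjusted p = 0.0356), and the call was lost on the arrays with Pcp2 over 500 (-0.34, adjusted p = 0.133) and with the mean of all its probe sets (-0.14, adjusted p = 0.243). Of 7 neuron markers 2 fell and 0 rose in ERalphaKO-labelled brains, beside 3.63% lower and 3.07% higher of all tested genes. The 2 were the synaptic vesicle gene Syn1 (-0.41 ± 0.10, adjusted p = 0.0210) and the neurofilament gene Nefl (-0.31 ± 0.06, adjusted p = 0.00949). The unadjusted p was under 0.05 for 6 of the 7 markers, beside 23.3% of all tested genes. The summed signal of that list was 42856 to 55535 in ERalphaKO-labelled and 52033 to 69282 in ERbetaKO-labelled arrays, against 56996 to 72611 in wild type arrays, so the ERalphaKO-labelled and wild type ranges did not overlap. Gabbr1 correlated with the list at 0.91 over the 18 arrays and at 0.87 after group means were removed. The part of brightness and of neuronal content in the Gabbr1 difference was not tested. The second probe set of Gabbr1, at 4036 ± 355 (ERalphaKO-labelled) and 4776 ± 373 (wild type), fell short of the threshold (-0.24 ± 0.08, adjusted p = 0.102), and the further 2 had differences of -0.14 and 0.23 (adjusted p = 0.757 and 0.525).

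**Figure D3:**
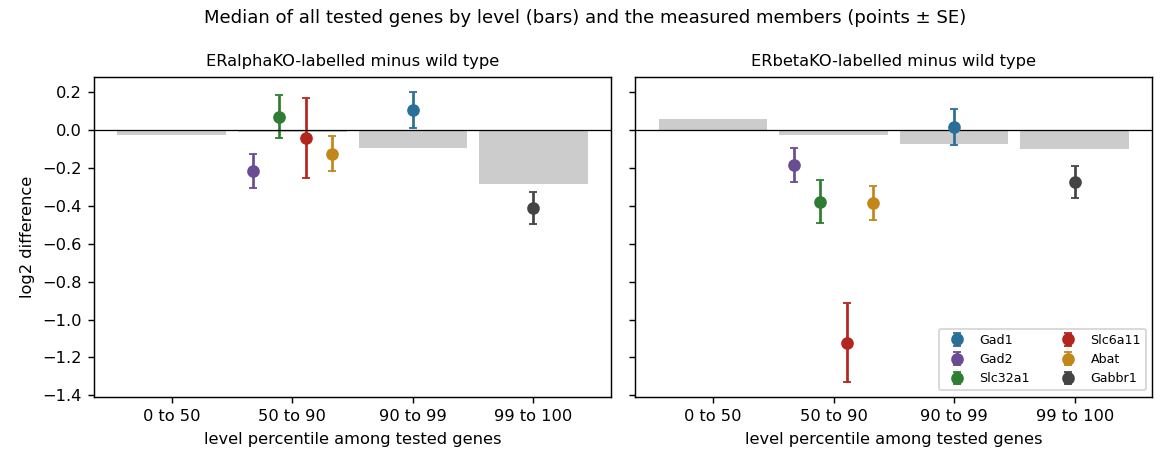
Median log2 difference of all tested genes in 4 bins of signal percentile (bars) with the 6 measured genes drawn in their bin (points ± SE). The bars fall to -0.29 in ERalphaKO-labelled and to -0.10 in ERbetaKO-labelled brains in the brightest bin, where Gabbr1 lies.

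Set directly against each other, ERalphaKO-labelled brains were higher than ERbetaKO-labelled brains in 2 of the 6 genes, Slc6a11 and Slc32a1, and lower in 0. The unadjusted p was under 0.05 for 3 of the 6, beside 32.1% of all tested genes. Of all tested genes 6.27% were higher and 9.11% lower in this comparison, and scaling to a common median moved the share of higher calls to 77.0%, against 40.7%. Abat differed by 0.26 ± 0.09 (SE, limma adjusted p = 0.0604). That difference passed under 9 of 33 other settings, among them median scaling (0.38, adjusted p = 0.0182) and array weights (0.29, adjusted p = 0.0138), and in 1 of the 9, the mean of both probe sets, it had the opposite sign (-0.32, adjusted p = 0.0186). Of the 6 genes only Slc6a11 had groups free of overlap, as had 5.85% of all tested genes. The median difference of the 6 was 0.18, against -0.02 over all tested genes. In ERbetaKO-labelled against wild type brains 0 of the 6 leading probe sets were free of overlap, against 4.06% of all tested genes. From high to low, the mean signal ran ERalphaKO-labelled, wild type, ERbetaKO-labelled for Slc32a1, wild type, ERalphaKO-labelled, ERbetaKO-labelled for Slc6a11 and Abat, wild type, ERbetaKO-labelled, ERalphaKO-labelled for Gad2 and Gabbr1, and ERalphaKO-labelled, ERbetaKO-labelled, wild type for Gad1. Of neighbours in these orders, only ERalphaKO-labelled and ERbetaKO-labelled brains for Slc6a11 differed past the threshold.

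**Figure D4:**
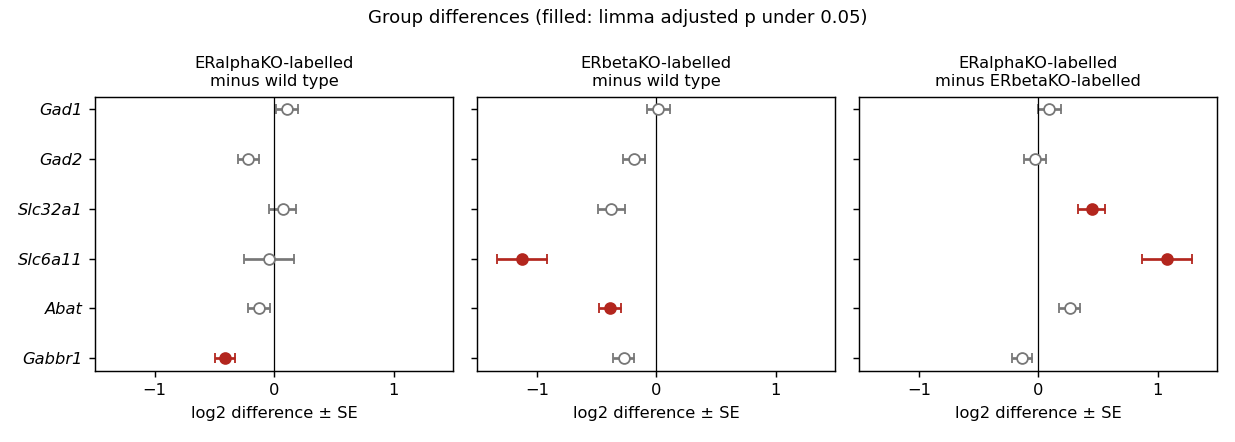
Log2 difference ± SE of the 6 leading probe sets in the 3 comparisons of genotypes, filled where the limma adjusted p is under 0.05. Slc6a11 stands at -1.12 in ERbetaKO-labelled against wild type and at 1.08 in ERalphaKO-labelled against ERbetaKO-labelled brains.

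For females against males 0 of 6 passed by limma, beside 0.0306% of all tested genes, and 0 had an unadjusted p under 0.05, beside 4.57% of all tested genes. The genotype by sex interaction, the knockout difference in females minus that in males, passed limma's threshold for none of the 6 genes, beside 0% of all tested genes in each of ERalphaKO-labelled and ERbetaKO-labelled brains. In ERalphaKO-labelled brains 1 gene had an unadjusted p under 0.05, Gad2 with an interaction of 0.45 ± 0.18 (SE), as did 5.15% of all tested genes. In ERbetaKO-labelled brains 2 had, Abat and Slc32a1 (0.51 ± 0.23), as did 3.38% of all tested genes.

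The rest of the GABA pathway was read from 6 lists of 46 genes, of which 36 were tested. In ERalphaKO-labelled brains 1 rose and 2 fell, beside 3.07% higher and 3.63% lower of all tested genes, with a median of 0.01 over the 36. In ERbetaKO-labelled brains 1 rose and 4 fell, beside 2.91% higher and 4.58% lower of all tested genes, with a median of 0.02. With so few called among 36, the genes named next are single values and not a result about the pathway. Gnb1, a beta subunit of the G proteins that GABA-B receptors use, fell in ERalphaKO-labelled (-0.77 ± 0.15, limma adjusted p = 0.00867) and ERbetaKO-labelled brains (-0.85 ± 0.15, adjusted p = 0.00484). It read 2294 ± 465, 2182 ± 521 and 3967 ± 776 in ERalphaKO-labelled, ERbetaKO-labelled and wild type arrays (SD, n = 6 each). Gnai2, an inhibitory G protein alpha subunit, fell in ERbetaKO-labelled brains (-0.49 ± 0.08, adjusted p = 0.00188), and Kcnj3, a subunit of the potassium channel that GABA-B receptors open, rose there (0.36 ± 0.10, adjusted p = 0.0304). Slc38a2, a glutamine transporter that supplies transmitter synthesis, fell there as well (-0.33 ± 0.10, adjusted p = 0.0478).

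Of 7 tested auxiliary subunits and partners of the receptor, 1 rose and 1 fell in ERalphaKO-labelled brains. In ERbetaKO-labelled brains 0 rose and 1 fell. The shares of all tested genes were 3.07% higher and 3.63% lower in the first comparison, and 2.91% and 4.58% in the second. Atf4, a transcription factor that binds Gabbr1, rose in ERalphaKO-labelled brains (0.60 ± 0.10, limma adjusted p = 0.00318), and Ddit3, a stress-linked factor of the same family, fell in ERalphaKO-labelled (-0.60 ± 0.12, adjusted p = 0.00761) and ERbetaKO-labelled brains (-0.39 ± 0.12, adjusted p = 0.0483). Kctd16, an auxiliary GABA-B subunit, was lower in ERalphaKO-labelled than in ERbetaKO-labelled brains (-0.39 ± 0.09, adjusted p = 0.0111), as was the glutamine transporter Slc38a5 (-0.34 ± 0.11, adjusted p = 0.0419). In that comparison 3 of 36 were higher, Slc38a2, Atf4 and Gnai2, and 2 lower, beside 6.27% and 9.11% of all tested genes. Slc6a13, a further GABA transporter, was tested with a difference of -0.83 ± 0.29 in ERbetaKO-labelled brains (adjusted p = 0.0838).

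Markers of inhibitory neurons were read beside Gad1, Gad2 and Slc32a1. Of 11 interneuron markers 0 passed by limma in either knockout-labelled group against wild type, with medians of -0.06 and 0.18, and 1 and 4 had an unadjusted p under 0.05, beside 23.3% and 25.4% of all tested genes. Between the knockout-labelled groups 2 of the 11 were lower and 0 higher in ERalphaKO-labelled brains, beside 9.11% and 6.27% of all tested genes. Vip (-0.59 ± 0.16, adjusted p = 0.0223) and Htr3a (-0.37 ± 0.08, adjusted p = 0.00832) were lower in ERalphaKO-labelled than in ERbetaKO-labelled brains. The summed signal of the list was 21944 to 28300 in ERalphaKO-labelled, 25304 to 34302 in ERbetaKO-labelled and 24593 to 33348 in wild type arrays, all overlapping.

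Among themselves the 6 genes were loosely tied. Over the 15 pairs the correlation of log2 signals across the 18 arrays ran from -0.13 to 0.63 with a median of 0.26, and the highest was Slc32a1 with Slc6a11. After group means were removed it ran from -0.52 (Gad1 with Abat) to 0.61 (Gad1 with Gabbr1), and Gad1 with Gad2 stood at 0.59. These points share the array, its scaling and its tissue sample, and they are given as descriptions. After group means were removed Gad1 correlated with the general neuron list at 0.79, the interneuron list at 0.72 and the olfactory bulb list at 0.69. Slc32a1 correlated with the striatal list at 0.74 and with the interneuron list at 0.02, or -0.27 over the 18 arrays.

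The tested genes most like each member over the 18 arrays were Ybx1 (0.83), Eif4a1 and Cltc for Gad1, Ubl3 (0.74), Stard10 and Fig4 for Gad2, and Sox1 (0.92), S100pbp and Fam219a for Slc32a1. For Slc6a11 they were Fads2 (0.86), Enah and Adgrg1, for Abat Urod (0.92), Pip4k2a and Dnajb2, and for Gabbr1 Pkm (0.95), Gnas and Aplp1. The value in parentheses is Pearson's r of the closest gene. Without the 2 arrays farthest from the median of Gad2 its correlation with Ubl3 was 0.43, and the same check gave 0.89 for Slc32a1 with Sox1.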

How the data were processed

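RNA of 18 whole brain samples was measured on Affymetrix Mouse 430 arrays. Total RNA came from flash-frozen tissue by Trizol with an RNeasy cleanup and was labelled with biotin, per the labels' protocols. The deposited values are linear signal intensities, one per probe set, made with MAS5 per the submitters' processing notes (its version is not given in the sources used here). In each deposited column the trimmed mean, 2% off each end, was 500, so the authors scaled every array to one target. Depth does not apply to arrays, and their number limits the precision. The members and lists were chosen with earlier results of these data known.

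Here the 64 control probe sets were left out, and symbols came from the platform annotation (34945 of 45037 probe sets with 1 symbol, 932 with several and 9160 with none), updated to RefSeq GRCm38.p6 by entrez identifier for 34741, by symbol for 143 and kept for 61. The scale was log2(signal + 63.63), with the 25th percentile of all values as pseudocount, and log2 differences understate changes of dim genes. Each of 18193 genes was read by its brightest probe set on average, and 13072 at or above the 40th percentile (log2 level 7.58) were tested. limma 3.58.1 in R 4.3.3 fitted 6 group means with an intensity trend and 12 residual degrees of freedom, with Benjamini-Hochberg adjustment at 0.05. Adjusted p-values of all genes come from this fit, and those of further probe sets from a fit without a filter. Named genes were the members with all their probe sets, up to 4 called genes per list and the 3 tested genes most correlated with each member. Beside these, Esr1, Esr2, Pcp2, Nnt and Fos were read to describe the arrays. Correlations are Pearson's r. Plots used matplotlib 3.10.9 (Python 3.11.15). The fit was tested on simulated data.

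Alternatives were other pseudocounts, scalings, filters, probe set rules, no trend, array weights, only the genotypes compared, a replicate block, a cerebellar score or the Actb ratio as a covariate, arrays with Pcp2 over 500, and each array left out. The main fit did not pair samples by replicate number. Of 45 same-numbered pairs of arrays, 14 had residuals correlated over 0.1, with a range of -0.486 to 0.487. The median of these pairs was 0.019, against -0.0085 for other pairs of arrays from different groups. With 3 arrays per group, such residuals cannot exclude a shared batch.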

Additional observations from a re-analysis of the deposited data

How the results depend on the processing

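Among the 6 measured genes, the number called in ERalphaKO-labelled against wild type brains, 1, was 2 with quantile normalization and 0 with the mean of all probe sets or on arrays with Pcp2 over 500. The number in ERbetaKO-labelled against wild type brains, 2, was 4 with median scaling, 1 on arrays with Pcp2 over 500, 0 with the mean of all probe sets or the Actb ratio as a covariate, and 1 (without ERbetaKO-labelled male 2) to 4 (without wild type male 1) when arrays were left out in turn. It was 3 with the filter at the 60th percentile, the cerebellar score as a covariate or the replicate block, where Slc32a1 was added. The number in ERalphaKO-labelled against ERbetaKO-labelled brains, 2, was 3 with quantile normalization or median scaling and 1 with the Actb ratio, that 1 being Abat (0.43, adjusted p = 0.0446) and neither of the 2. That number was also 3, with Abat added, under array weights, on arrays with Pcp2 over 500 and in 4 of the 18 fits that left out 1 array. The mean of all probe sets turned Abat to 0.087 in ERbetaKO-labelled against wild type and to -0.322 (adjusted p = 0.0186) in ERalphaKO-labelled against ERbetaKO-labelled brains. Lost calls were Gabbr1 in ERalphaKO-labelled brains (-0.14 with the mean of probe sets, -0.34 with Pcp2 over 500), Slc6a11 (-0.43, adjusted p = 0.0550, with the mean of probe sets, -1.03 with the Actb ratio, -1.05 with Pcp2 over 500) and Abat (-0.62, adjusted p = 0.0549, with the Actb ratio, -0.35 without ERbetaKO-labelled male 2) in ERbetaKO-labelled brains, and Slc32a1 (0.55, against 0.45 without it, adjusted p = 0.0511) and Slc6a11 (1.01, against 1.08, adjusted p = 0.0576) between the knockout-labelled groups with the Actb ratio. The cause was not tested. The Actb ratio did not overlap between ERbetaKO-labelled and wild type arrays, so that covariate cannot be told apart from the label there. Gabbr1 in ERbetaKO-labelled brains passed with median scaling (-0.41, adjusted p = 0.0237) and without wild type male 1 (-0.33) or ERbetaKO-labelled female 1 (-0.31). With the mean of all probe sets its difference there changed sign, to 0.03. With the replicate number as a block, Slc32a1 in ERbetaKO-labelled against wild type brains passed (-0.38, adjusted p = 0.0241), no other call of the 6 genes changed, and 730, 852 and 1827 genes passed in the 3 genotype comparisons, against 876, 980 and 2010. Over the settings that test genes those counts spanned 75 to 1559, 122 to 1873 and 756 to 3827, and with all probe sets as features 2450, 2113 and 4173 probe sets passed. Slc32a1 fell below the filter under the mean of all probe sets.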
